A study of Mus musculus with 56 samples.

Results

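The clustered histone genes are the genes whose symbols begin with Hist1h, Hist2h, Hist3h or Hist4h, with names ending in -ps left out. By that rule 68 of the 27933 gene symbols of the single-cell matrix were members, as were 67 of the 23418 symbols of the bulk count table and 67 of the 23356 symbols of the FPKM files; Hist1h2al was a member in the single-cell matrix alone. The 68 comprised 6 genes of the linker histone class H1, 19 of H2A, 18 of H2B, 12 of H3 and 13 of H4. On the mouse genome 55 of them lie on chromosome 13, 10 on chromosome 3, 2 on chromosome 11 and 1 on chromosome 6.

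Histones of the classes H2A, H2B, H3 and H4 form the core around which DNA is wrapped, and H1 binds the DNA between cores. Most clustered genes are copied mainly while DNA is being replicated, so that new chromatin can be packed, and their messages typically end in a short stem-loop bound by the protein encoded by Slbp instead of a poly(A) tail. Some members are also known to give polyadenylated messages, and both library kinds used here start from poly(A), so the values below describe what such libraries recovered.

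The series measured microglia, the resident macrophages of the brain, of the mouse cortex and asked how they differ with age, with ST2, the receptor of IL-33, and between functionally sorted subsets. Droplet-based 3′ single-cell libraries of B6 cortex came from wild-type mice at P28 (postnatal day 28, 2 libraries) and at P9 (2 libraries), and from P9 mice labelled ST2 KO (2 libraries) and ST2 Het (2 libraries, the heterozygous littermates). Bulk Smart-seq2 libraries came from 7 IL33 and 7 Medium cultures of wild-type B6 microglia taken from pups at day 5 to 8, kept 7 to 9 days in vitro and given 200 ng/ml IL-33 for 3 h or medium. The protocol also names a pretreatment with GSK-J4, an inhibitor of histone demethylases, and no label says which cultures had it. Further bulk libraries came from 8 Tau-GFP plus and 8 Tau-GFP negative microglia samples of B6/129 carriers of Mapttm1(EGFP)Klt, a knock-in of EGFP at the tau gene, whose neurons are fluorescent; their labels give P10, and the design text P9. The last set held 10 TMRM high and 8 TMRM low samples of P9 cortical microglia from B6/C57 mice, sorted by TMRM, a dye whose signal follows the membrane potential of mitochondria. The labels do not say that replicates came from separate animals or cultures, so p-values measure the spread between these samples, which may be technical.

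The stem-loop is shown because it divides the members into those that carry it in their annotated message and those that do not. The histone stem-loop consensus, left free in the inner bases of the stem and the last base of the loop, where the forms printed here differ, searched on the message strand within 100 bases after the stop codon of the GENCODE M21 transcripts, was found in 44 of the 67 members with an annotated coding transcript (65.7%) and in 3 of 21613 other coding genes (0.0139%). All 44 could pair over the whole stem, and the site began 21 to 58 bases after the stop (median 31). Of the 23 members without it, 15 had fewer than 30 annotated bases after the stop. The sites of Hist1h1c (chr13:23739507-23739532, plus strand), Hist1h2ap (chr13:21833026-21833049, minus strand), Hist3h2a (chr11:58955167-58955192, plus strand), Hist1h4i (chr13:22040961-22040986, minus strand) and Hist1h3c (chr13:23745042-23745067, minus strand), all on GRCm38 and just past the coding part, read as follows 5′ to 3′, with the stem-loop in capitals.
Hist1h1c: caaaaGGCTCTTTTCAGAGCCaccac
Hist1h2ap: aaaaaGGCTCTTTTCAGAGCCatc
Hist3h2a: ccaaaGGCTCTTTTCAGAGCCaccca
Hist1h4i: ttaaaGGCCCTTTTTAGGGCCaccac
Hist1h3c: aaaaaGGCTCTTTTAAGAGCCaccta
Hist1h3c was added after its values were seen, to show the third form of the loop. The form in the first 3 lines stood in 26 members, none of them of H4. All 11 H4 sites had the stem GGCCC or GGTCC, which no site of another class had.

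Annotated messages differed in what follows that site. In 22 members the transcript ran at least 100 bases past the stem-loop, among them Hist1h1c (840 bases), Hist3h2a (1643 bases) and Hist1h4i (330 bases), and in 9 of the 22 the letters AATAAA, the usual signal for a poly(A) tail, stood in the last 50 bases. The Hist1h2ap transcript ended 3 bases past the stem-loop. Hist1h2bc, an H2B gene of chromosome 13 (chr13:23684199-23692908, plus strand), has 2 exons and 742 bases after its stop, with no stem-loop in the window searched; 5 members in all have 2 or more exons. Hist1h2al (chr13:51202727-51203065, minus strand) is annotated as a processed pseudogene of 339 bases, so its reads have an uncertain source, and the longest run it shares with another member is 123 bases, with Hist2h2aa2.

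Many members are near-identical copies. In 58 of them at least 75 consecutive coding bases recur in another member, and the whole 393-base coding sequence of Hist1h2ap equals that of Hist1h2ao. Hist1h2be and Hist1h1e overlap on the same strand. Counts of such genes are uncertain, since reads could be divided among copies.

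Promoters are shown because the classes differed in them too. RefSeq (GRCm38.p6) gave 63 promoters for 62 of the members, each from 250 bases before to 50 after the start. CCAAT, the site of the factor NF-Y, stood on either strand in 54 of the 63 (85.7%), against 37.4% of all 32851 promoters; it was in all 51 of H1, H2A, H2B and H3 and in 3 of the 12 of H4 (25%). TATAAA was found in 55.6% of the members' promoters against 13.6% of all, and ATTTGCAT, the octamer site, in 22.2% (7 of H2A and 7 of H2B) against 1.74%. The 250 bases before the start of Hist1h1b (chr13:21780626-21780875, minus strand), which was almost undetected at P28, and of Hist3h2a (chr11:58954435-58954684, plus strand), which was higher at P28, are given with these motifs, on either strand, in capitals. A match is a description and says nothing of a factor's binding.
Hist1h1b: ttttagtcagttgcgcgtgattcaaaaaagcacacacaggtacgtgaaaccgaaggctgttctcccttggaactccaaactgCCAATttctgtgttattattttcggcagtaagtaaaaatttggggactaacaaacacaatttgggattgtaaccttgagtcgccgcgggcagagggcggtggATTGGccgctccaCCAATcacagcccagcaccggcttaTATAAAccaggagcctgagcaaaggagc
Hist3h2a: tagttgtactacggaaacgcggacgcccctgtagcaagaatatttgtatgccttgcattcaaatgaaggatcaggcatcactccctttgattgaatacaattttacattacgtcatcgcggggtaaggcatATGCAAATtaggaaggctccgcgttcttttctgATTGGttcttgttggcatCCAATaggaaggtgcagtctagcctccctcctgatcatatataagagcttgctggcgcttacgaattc

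In the single-cell matrix 15335 barcodes were kept, and 16 of 22 clusters were microglia-like, led by the microglia marker list, with all 10 of its genes detected. These held 655 to 2893 cells and 4124400 to 10582862 UMIs (counted molecules) a library; 137 barcode sequences occurred in more than 1 library. The bulk libraries of the count table held 7709047 to 11826389 expected counts. Il1rl1, which encodes ST2, had 31 and 28 UMIs in the libraries labelled KO, 37 and 46 in the Het libraries, 15 and 40 in the P28 and 73 and 57 in the wild-type P9 libraries. The labels do not say which exons were deleted, and a 3′ tag outside the deleted part checks nothing, so the genotype was not checked by it.

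Libraries stood apart in the members themselves. Members took 1517 and 814 UPM (UMIs per 1000000 UMIs of the cells counted) in the KO libraries, 778 and 735 in the Het libraries, 407 and 398 in the P28 libraries and 559 and 721 in the wild-type P9 libraries. KO replicate 1 was the highest of the 8 libraries. It was also the highest in Hist1h2al, which had 633 and 157 CPM (the same with TMM-scaled library sizes) in KO, 197 and 108 CPM in Het, 3.80 and 2.91 CPM in P28 and 11.8 and 26.6 CPM in wild-type P9 libraries. The ST2 libraries carry another date in their names than the wild-type ones, so strain line and date cannot be told apart for any difference between those sets. The wild-type P9 libraries also differed from each other in Hist1h2ap, with 17.2 and 71.9 CPM.

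The 68 members together held 39188 UMIs over microglia-like cells, of which 64.8% came from 6 genes. These were Hist1h2bc (6374 UMIs), the pseudogene-annotated Hist1h2al (5934), the H2A gene Hist3h2a (5428), the linker histone gene Hist1h1c (4372), the H2A gene Hist1h2ap (1667) and the H4 gene Hist1h4i (1636). At the other end, 21 members had under 100 UMIs each and 2.51% together. Hist2h3c1 led H3 with 306 UMIs, and H3 as a whole held 3.499% of member UMIs, against 41.5% for H2A, 26.5% for H2B, 18.5% for H1 and 10.05% for H4. H1 took 11.2% and 19.4% of member UMIs in KO, 17.4% and 19.8% in Het, 12.96% and 12.91% in P28 and 26.1% and 22.7% in wild-type P9 libraries. H4 took 8.92% and 12.4% in KO, 9.94% and 12.25% in Het, 4.01% and 3.86% in P28 and 10.4% and 13.1% in wild-type P9 libraries. The P28 libraries thus had the lowest H4 shares, while for the H1 share KO replicate 1 lay below them. As a level, H1 was lowest in the P28 libraries, at 52.7 and 51.4 UPM, and highest in KO replicate 1, at 170 UPM.

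**Figure D1:**
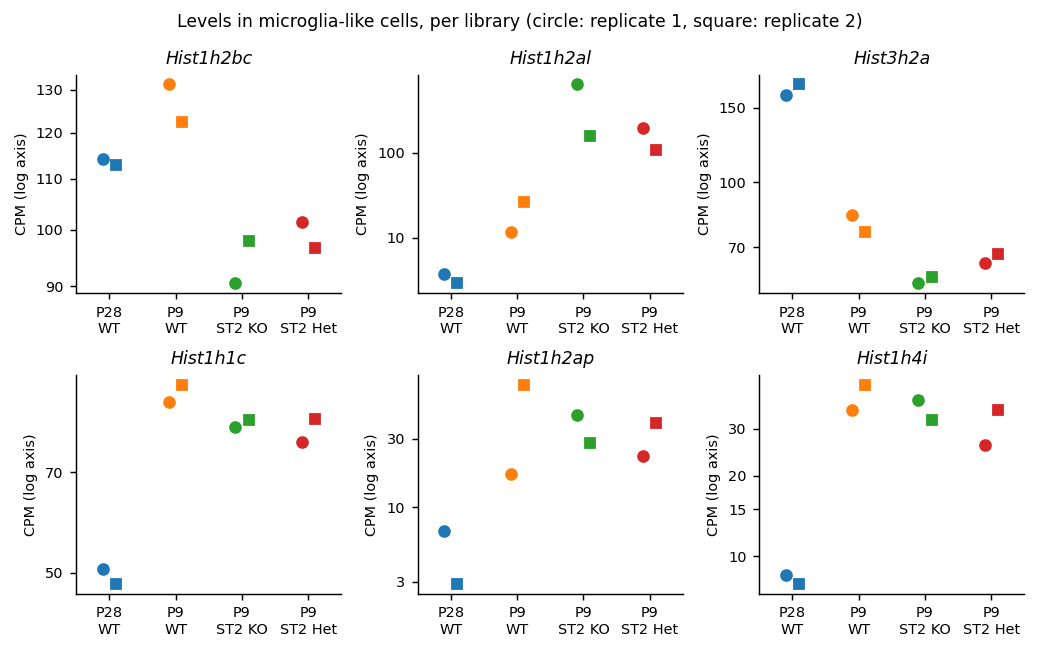
Levels of the 6 clustered histone genes with the most UMIs in microglia-like cells, in CPM on a log axis, for each of the 8 single-cell libraries (circles replicate 1, squares replicate 2). Hist1h2al spans 2.91 to 633 CPM over the libraries, and Hist3h2a is highest in the P28 libraries, at 160.5 and 170 CPM.

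Among the bulk values, FPKM (fragments scaled by message length and library size) set levels of different genes side by side, and those exist for the TMRM libraries. Averaged over the 18, the highest of each class were, for H2A, Hist1h2ao at 379 ± 118 FPKM, Hist1h2ag at 101 ± 31.3 and Hist1h2ad at 98.8 ± 31.35 (SD, n = 18); the last 2 overlapped. Among the H2B genes they were Hist1h2bc at 50.4 ± 11.6 FPKM, Hist1h2bj at 17.5 ± 2.09 and Hist1h2bk at 16.25 ± 2.355. H3 was led by Hist2h3b at 35.4 ± 11.6 FPKM, Hist2h3c2 at 12.98 ± 4.53 and Hist1h3i at 10.5 ± 4.16. The H4 genes Hist1h4d (20.5 ± 10.6 FPKM), Hist1h4i (16.7 ± 3.66) and Hist1h4n (11.97 ± 4.35) overlapped within 1 SD. Linker histone genes were low, with Hist1h1c at 12.3 ± 5.55 FPKM, Hist1h1b at 3.80 ± 1.74 and Hist1h1e at 3.05 ± 1.24. Neighbours changed places between the sorts: Hist1h1b averaged 4.23 and Hist1h1e 2.61 FPKM in TMRM high samples, against 3.25 and 3.595 FPKM in TMRM low samples. Hist1h4d averaged 25.4 and Hist1h4i 17.5 FPKM in high samples, against 14.4 and 15.7 FPKM in low samples. Hist1h2ao, first per length, had 74 UMIs in the 3′ libraries, while Hist1h2ap, with the identical coding sequence, had 1667 UMIs and at most 7.05 FPKM in any TMRM library. Hist1h2ad, at 98.8 FPKM, had 18 UMIs. The order of such copies thus differed between UMIs and FPKM, and the FPKM order among them is uncertain.

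Dividing and non-dividing cells were compared within the 6 P9 libraries. Each cell was thinned to 1000 UMIs, and a cell with at least 3 UMIs of 25 S-phase and 29 G2/M genes, none of them a histone gene, was called dividing; one with 0 was non-dividing. By this rule 2408 cells were dividing, 3603 were not, and 2778 with 1 or 2 such UMIs were in neither class; 430 of the dividing cells had exactly 3 and 840 of the unclassed ones had 2. Dividing cells made up 31.2% and 26.7% of the cells with enough UMIs to be thinned in KO, 23.7% and 25% in Het libraries. They made up 0.107% (3 cells; exact 95% interval 0.0220% to 0.311%) and 0.210% (6 cells; 0.0770% to 0.456%) in P28 libraries and 28.2% and 29.02% in wild-type P9 libraries. The intervals cover counting error only.

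Nearly every member was higher in dividing cells. Over all 68, including those too low to test, 65 had more UPM in dividing than in non-dividing cells of the 6 libraries, and members took 1609 UPM in dividing and 380.7 in non-dividing cells. Of the 56 tested, 54 were called higher (96.4%) and 2 lower, where 24.5% of all 10278 genes tested were called higher and 21.4% lower (edgeR's quasi-likelihood test with the library as a block, Benjamini-Hochberg adjusted p under 0.05, as for every call in the count data). The median log2 fold change was 3.26 over the tested members and -0.01 over all genes tested. The 12 untested members had at most 61 UMIs each. Some tested members passed the filter on low counts largely through the dividing cells. Hist1h4k had 51 UMIs in dividing and 1 in non-dividing cells, and Hist1h3c had 73 and 3. Dividing cells were also deeper, with a median of 4340 to 6685 UMIs a cell in the 6 libraries against 3546 to 5559 in non-dividing cells, and the part of depth in the result was not tested. Every tested member of H1, H2B and H4 was called higher.

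Hist1h2ap, an H2A gene, had a lowest, median and highest level of 49.4, 107 and 209 CPM in dividing cells and 0.358, 1.72 and 4.26 CPM in non-dividing cells. Its log2 fold change was 5.86 ± 0.14 (SE; adjusted p = 5.5e-33), and no dividing value reached down to the non-dividing ones. Hist1h2al had 32.45, 435 and 1781 CPM in dividing and 1.33, 6.84 and 30.1 CPM in non-dividing cells, a log2 fold change of 5.78 ± 0.08 (adjusted p = 2e-41). The groups were again apart, although the level itself ranged widely between libraries. Hist1h1b, a linker histone gene, had 54.55, 64.1 and 77.6 CPM in dividing and 0.669, 2.20 and 3.503 CPM in non-dividing cells (log2 fold change 4.98 ± 0.16, adjusted p = 3e-28), with no overlap.

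The H4 gene Hist1h4i had 61.7, 73.5 and 92.6 CPM in dividing cells against 9.11, 15.2 and 19.04 CPM in non-dividing cells, a log2 fold change of 2.30 ± 0.10 (adjusted p = 1.8e-23). Hist1h2ak and Hist1h2ae, both of H2A, changed by 4.82 ± 0.24 and 3.33 ± 0.17 on that scale. These 3 genes did not overlap between the classes. Hist1h1c and Hist1h2bc changed less: Hist1h1c by 0.90 ± 0.07, with 109, 113 and 127 CPM in dividing against 52.2, 62.0 and 76.4 CPM in non-dividing cells, and Hist1h2bc by 0.35 ± 0.06, with 94.0, 117 and 149 CPM in dividing against 76.7, 90.7 and 118 CPM in non-dividing cells. The Hist1h2bc classes overlapped between libraries, while the fold change within libraries passed the test (adjusted p = 5.5e-06).

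The 2 called lower were Hist3h2a and Hist2h3c1. Hist3h2a had 36.05, 48.0 and 61.3 CPM in dividing cells and 67.2, 77.1 and 105 CPM in non-dividing cells, a log2 fold change of -0.74 ± 0.07 (adjusted p = 2.8e-12) with no overlap. The H3 gene Hist2h3c1 had 1.43, 2.51 and 3.75 CPM in dividing against 3.68, 5.00 and 7.59 CPM in non-dividing cells (-0.95 ± 0.31, adjusted p = 0.0099); this call rests on 33 UMIs in dividing and 80 in non-dividing cells and was lost with DESeq2 (adjusted p = 0.095).

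Genes that handle histones mostly rose as well, in a list of 30 that process histone messages or carry and deposit histones. Of 29 tested, 21 were higher and 2 lower: Asf1b, a chaperone of H3 and H4, by 4.63 ± 0.10 on the log2 scale, Slbp by 1.52 ± 0.05 and Hirip3 by 3.09 ± 0.12, and Lsm10, of the U7 particle that cuts histone messages, by -0.40 ± 0.10 and Cpsf3, the nuclease of that cut, by -0.32 ± 0.09. Of 11 unclustered histone genes tested 10 rose, among them H2afz (2.08 ± 0.03), H2afx (3.99 ± 0.05) and the centromeric Cenpa (3.86 ± 0.08).

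**Figure D2:**
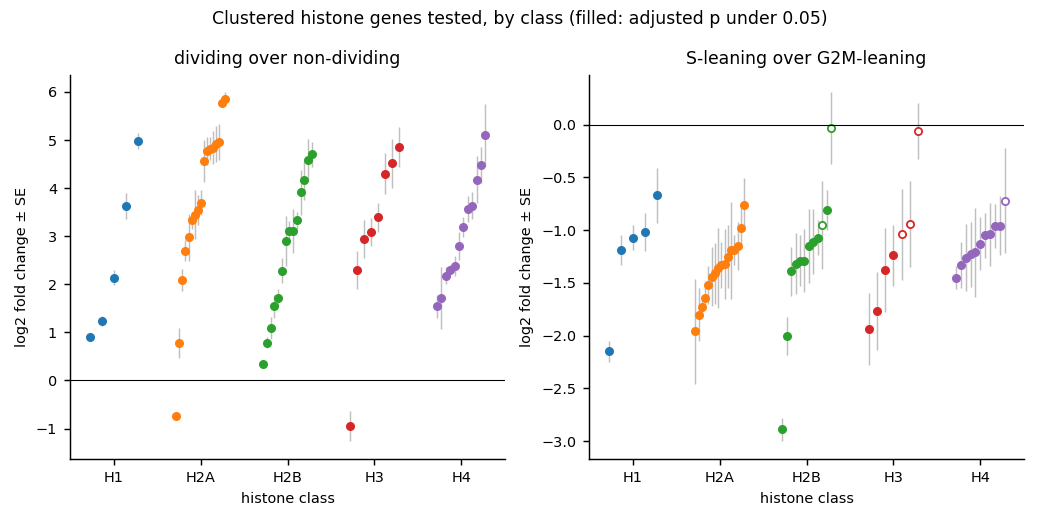
Log2 fold changes (± SE) of the tested clustered histone genes by class, dividing over non-dividing cells on the left and S-leaning over G2M-leaning cells on the right; filled points have an adjusted p under 0.05. On the left 54 of 56 are called above 0, and on the right 45 of 51 are called below 0.

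Within dividing cells, 1110 had more UMIs of the S-phase than of the G2/M list (S-leaning) and 1197 fewer (G2M-leaning). Over all 68 members 64 had fewer UPM in S-leaning than in G2M-leaning cells, with 823 UPM together in S-leaning and 2279 in G2M-leaning cells. Of 51 tested, 45 were called lower (88.2%) and 0 higher, where 14.2% of all 9423 genes tested were called lower and 15.4% higher; the median log2 fold change was -1.23 over the tested members and -0.01 over all genes. At an unadjusted p under 0.05, 48 of the 51 differed (94.1%), as did 3632 of the 9423 genes (38.5%). All 5 tested H1 genes and all 16 tested H2A genes were lower in S-leaning cells.

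Hist1h2bc, with 19.4, 27.2 and 37.5 CPM (lowest, median, highest) in S-leaning cells against 168, 212 and 263 CPM in G2M-leaning cells, had a log2 fold change of -2.89 ± 0.11 (adjusted p = 1.5e-33). Hist1h1c followed with 31.8, 43.6 and 50.8 CPM in S-leaning against 171, 189 and 201.5 CPM in G2M-leaning cells (-2.15 ± 0.10, adjusted p = 1.1e-28). In both genes all 6 libraries fell on either side of a wide gap. Hist3h2ba, an H2B gene beside Hist3h2a on chromosome 11, had 8.60, 9.94 and 21.5 CPM in S-leaning and 29.5, 49.1 and 61.0 CPM in G2M-leaning cells (-2.0 ± 0.18).

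Hist1h2al changed by -1.73 ± 0.07, Hist1h2ap by -1.64 ± 0.10 and Hist1h4i by -1.45 ± 0.11 between S-leaning and G2M-leaning cells. Hist1h2al had 13.5, 168.5 and 971 CPM in S-leaning and 48.9, 670 and 2462 CPM in G2M-leaning cells; the classes overlap over libraries, and each library had its higher value in G2M-leaning cells. Hist1h2ap had 23.6, 41.4 and 105 CPM in S-leaning and 69.9, 155 and 282.5 CPM in G2M-leaning cells, with the same order in each library. Hist3h2a had 12.9, 32.7 and 42.05 CPM in S-leaning and 54.5, 59.1 and 89.7 CPM in G2M-leaning cells (-1.19 ± 0.14, adjusted p = 5.7e-11).

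Of the 29 tested genes of the histone-handling list 14 were higher in S-leaning cells and 12 were not called (median log2 fold change 0.28). Those higher included Mcm2, of the replicative helicase (2.03 ± 0.11), Slbp (0.87 ± 0.06) and the acetyltransferase gene Hat1 (1.06 ± 0.09), and the 3 lower were Asf1b (-0.47 ± 0.08), Hirip3 (-0.46 ± 0.11) and Srrt (-0.40 ± 0.10). The unclustered histone genes were lower in S-leaning cells in 10 of 10 tested, with Cenpa at -3.68 ± 0.09, H2afz at -1.15 ± 0.03 and H2afx at -2.24 ± 0.06.

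Both classes were also set against non-dividing cells, contrasts chosen after the data were seen that come from the same fit and share its samples. In S-leaning over non-dividing cells 43 of the 51 tested members were higher and 4 lower (background 21.3% and 17.1%), and in G2M-leaning over non-dividing cells 50 were higher and 1 lower (background 24.1% and 22.1%). Here too, some tested members passed the filter on low counts largely through dividing cells. The 4 that were lower in S-leaning cells were Hist1h2bc (-1.75 ± 0.11), Hist3h2a (-1.48 ± 0.12), Hist1h1c (-0.57 ± 0.11) and Hist3h2ba (-0.58 ± 0.19), all with adjusted p of 0.011 or less. In G2M-leaning cells the first, Hist1h2bc, was instead higher than in non-dividing cells (1.14 ± 0.07), as was Hist1h1c (1.57 ± 0.07), and Hist3h2a was lower (-0.29 ± 0.09, adjusted p = 0.0072). Hist1h2al, Hist1h2ap, Hist1h1b, Hist1h2bm, Hist1h2ak and Hist1h2bj were above non-dividing cells in S-leaning cells, by 4.63, 4.71, 4.28, 4.20, 4.14 and 2.67 on the log2 scale. In G2M-leaning cells Hist1h2al, Hist1h2ap, Hist1h1b, Hist1h4i and Hist1h2ae were above them by 6.36, 6.35, 5.34, 2.80 and 3.81. Hist1h4i was above them by 1.35 ± 0.14 in S-leaning cells.

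**Figure D3:**
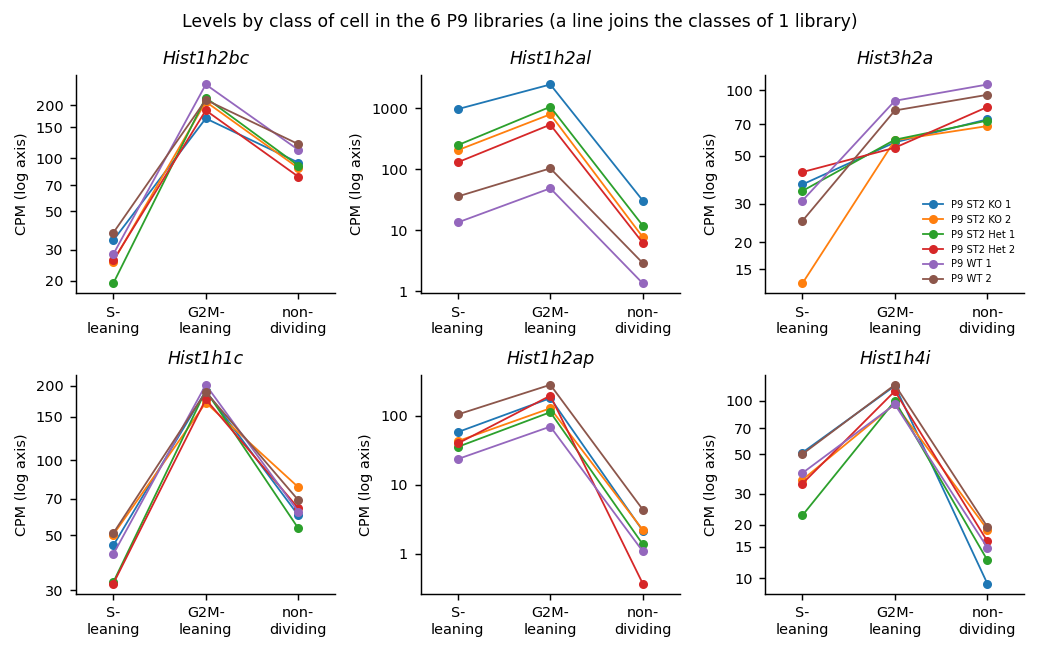
Levels of the same 6 genes (CPM, log axis) in S-leaning, G2M-leaning and non-dividing cells of the 6 P9 libraries, with a line for each library. Hist1h2bc and Hist1h1c dip in S-leaning cells below their non-dividing level and peak in G2M-leaning cells, while Hist1h2al, Hist1h2ap and Hist1h4i are lowest in non-dividing cells.

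Levels in clusters drawn without histone or cell cycle genes are given as a description, with no test. The cluster led by Ccnb2, Cdc20 and Cenpa (434 cells, all from P9 libraries) had 417 to 636 UPM of Hist1h2bc, 334 to 424 UPM of Hist1h1c and 0 to 16.1 UPM of Hist1h2ap over the 6 libraries. The cluster led by Ube2c, Nusap1 and Pbk (687 cells) had 64.4 to 148 UPM of Hist1h2bc and 99.9 to 385 UPM of Hist1h2ap. The cluster led by Ccne2 and Rrm2 (650 cells) had 8.02 to 40.0 UPM of Hist1h2bc, 33.1 to 72.7 UPM of Hist1h1c and 40.4 to 149 UPM of Hist1h2ap. Hist1h2bc was thus lowest in the third of these and highest in the first in all 6 libraries, while Hist1h2ap was lowest in the first. The smaller cluster led by Fbxo5, Aurka and Prc1 (123 cells) is not in that order. It had 6.70 and 53.55 UPM of Hist1h2ap (1 and 6 UMIs) in the wild-type P9 libraries. In the ST2 libraries it had 112 to 221 UPM.

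Age was compared in wild-type mice, P28 against P9. Over all 68 members 61 had fewer UPM at P28, 6 more and 1 as many, with 402.5 UPM together at P28 and 636.8 at P9. Of 59 tested, 48 were lower at P28 (81.4%) and 3 higher, where 26.2% of all 11600 genes tested were lower and 27.5% higher. Tested members passed the filter on low counts largely through the P9 libraries: 10 of them had 0 UMIs at P28, for which a floor of 3 UMIs over the group gives folds of at least 1.93-fold to 23.7-fold lower. The median log2 fold change was -3.40, or -3.24 with those 10 at their bounds, and 0.06 over all genes. S-phase and G2/M genes moved with age too, all 25 and all 29 lower at P28; the S-phase list summed to 162 and 175 CPM at P28 and 1319 and 1321 CPM at P9. Markers of other cells moved as well: 5 of 6 tested border macrophage markers were lower at P28 (summed level 28.2 to 33.2 CPM at P28 and 268 to 288 CPM at P9), 5 of 5 neutrophil markers were higher (58.4 to 91.2 CPM at P28 and 2.14 to 5.92 CPM at P9, with Elane and Mpo at 0), and 9 of 10 microglia markers were higher (31170 to 32030 CPM at P28 and 23080 to 23910 CPM at P9). The part of these genes and cells in the result was not tested.

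All 5 tested linker histone genes were lower at P28. Hist1h1b had 0 and 1 UMI at P28 and 449 UMIs in both P9 libraries together, a ratio of 0.00307 (exact 95% counting interval 7.75e-05 to 0.0172; adjusted p = 1.1e-08). Hist1h1d had 2 UMIs at P28 and 278 at P9, a ratio of 0.00992 (0.00119 to 0.0362; adjusted p = 1.7e-08). Neither gene was more than barely detected at P28.

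Hist1h1e had 1.49 and 3.60 CPM at P28 against 24.4 and 29.4 CPM at P9 (log2 fold change -3.43 ± 0.23, adjusted p = 5.4e-08). Hist1h4i had 8.54 and 7.89 CPM at P28 against 35.3 and 43.9 CPM at P9 (-2.30 ± 0.18, adjusted p = 1.8e-07). Hist1h2ae had 1.084 and 0.692 CPM at P28 against 8.77 and 15.7 CPM at P9 (-3.78 ± 0.40). In these genes both P28 libraries lay well below both P9 libraries.

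Hist1h1c was reduced less, to 50.7 and 48.2 CPM at P28 against 88.6 and 93.9 CPM at P9 (-0.92 ± 0.07, adjusted p = 1.9e-07). Hist1h2ap had 6.78 and 2.91 CPM at P28 against 17.2 and 71.9 CPM at P9 (-3.21 ± 0.65, adjusted p = 0.001). Without P9 replicate 2 the Hist1h2ap difference was -1.85 (adjusted p = 0.0021), and leaving out the other 3 libraries in turn gave -3.93 to -2.71. Hist1h2al had 3.80 and 2.91 CPM at P28 against 11.8 and 26.6 CPM at P9 (-2.52 ± 0.98, adjusted p = 0.045). The Hist1h2al call was lost without P28 replicate 1, P28 replicate 2 or P9 replicate 2 (adjusted p = 0.11, 0.14 and 0.21). Hist1h2bc differed little, with 114 and 113 CPM at P28 against 131 and 122 CPM at P9 (-0.19 ± 0.06, adjusted p = 0.022), and this call was lost with DESeq2 (adjusted p = 0.056), without the filter on low counts (0.080) and without either P28 library or P9 replicate 1 (0.11, 0.15 and 0.17).

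The 3 higher at P28 were Hist3h2a and a pair of H3 genes. Hist3h2a had 160.5 and 170 CPM at P28 against 83.6 and 76.2 CPM at P9 (1.02 ± 0.07, adjusted p = 3.3e-08). The H3 genes Hist2h3c1 and Hist2h3c2 on chromosome 3, whose 411 coding bases are shared, had 10.3 and 10.25 CPM at P28 against 3.22 and 3.66 CPM at P9 (1.55 ± 0.20) and 4.34 and 4.71 CPM at P28 against 0.877 and 0.538 CPM at P9 (2.60 ± 0.42). Of the histone-handling list 18 were lower at P28 (Mcm2 by -4.01 ± 0.17, the chaperone gene Nap1l1 by -1.90 ± 0.10, Chaf1a by -5.43 ± 0.30) and 4 higher (Cabin1 by 0.40 ± 0.08, Lsm10 by 0.47 ± 0.11, Tonsl by 0.25 ± 0.06) of 29 tested. Of the unclustered histone genes 11 of 11 tested were lower, with Cenpa at -5.09 ± 0.12, H2afz at -1.67 ± 0.06 and the linker histone gene H1f0 at -1.69 ± 0.06.

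Age was also compared in non-dividing cells alone. Members took 402.3 UPM at P28 and 381.6 at P9 in these cells; over all 68, 45 had fewer and 20 more at P28. Only 23 passed the filter on low counts, of which 8 were lower (34.8%) and 4 higher (17.4%), against 21.4% and 20.9% of all 10404 genes tested; the share higher is near the background. Cells without a thinned cell cycle UMI are not free of such RNA: their full counts gave 91.5 to 106 CPM of the S-phase list at P28 and 293 to 297 CPM at P9, and 13.3 to 14.9 CPM of the G2/M list at P28 and 143 to 144 CPM at P9. Border macrophage markers summed to 27.4 to 33.4 CPM at P28 and 242 to 266 CPM at P9 (5 of 5 tested lower), neutrophil markers to 55.5 to 86.5 CPM at P28 and 2.65 to 6.01 CPM at P9 (4 of 4 higher), and 7 of 10 microglia markers were higher. The part of this RNA in the result was not tested.

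Among the lower genes, Hist1h1e had 1.76 and 3.41 CPM at P28 against 17.5 and 18.04 CPM at P9 in non-dividing cells (-2.78 ± 0.30, adjusted p = 6.6e-07). Hist3h2ba had 7.36 and 9.89 CPM at P28 against 20.4 and 19.8 CPM at P9 (-1.23 ± 0.22, adjusted p = 0.00016), and Hist1h4i 7.84 and 6.97 CPM at P28 against 14.6 and 19.2 CPM at P9 (-1.19 ± 0.24, adjusted p = 0.00057). Both P28 libraries lay below both P9 libraries in all 3. Hist1h1d (2 UMIs at P28 and 34 at P9; ratio 0.0369, 0.00429 to 0.144), Hist1h2bj (3 UMIs at P28 and 22 at P9; ratio 0.0855, 0.0164 to 0.284) and Hist1h2ae (-1.96 ± 0.51) were also called. Hist1h1c changed by -0.39 ± 0.11 (adjusted p = 0.010), a call lost without P28 replicate 2 or P9 replicate 2 (adjusted p = 0.13 and 0.11), as was that of Hist1h2ae (0.066 and 0.19).

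Hist3h2a was higher at P28, with 157 and 164 CPM against 105 and 94.2 CPM at P9 in non-dividing cells (0.67 ± 0.08, adjusted p = 1.9e-06). Hist2h3c1 (1.30 ± 0.27), Hist2h3c2 (2.75 ± 0.55) and the H2A gene Hist2h2aa2 (2.27 ± 0.72, adjusted p = 0.016) were the other 3. Hist2h3c2 and Hist2h2aa2 had 4 UMIs each at P9. Hist2h2aa2 had 3.84 and 1.78 CPM at P28 against 0.796 and 0.286 CPM in the wild-type P9 libraries, while the non-dividing cells of the ST2 libraries, also of P9 and of another date, had 6.33 and 2.75 CPM in KO and 5.04 and 2.90 CPM in Het. The P28 values thus lay above those of the wild-type P9 libraries but not above all P9 libraries. Hist1h2bc had 111 and 109 CPM at P28 against 110 and 118.5 CPM at P9 (-0.06 ± 0.08, adjusted p = 0.55). Hist1h2al (0.75 ± 0.64, adjusted p = 0.37) and Hist1h2ap (0.81 ± 0.54, adjusted p = 0.24) did not pass the test; they had 3.08 to 4.00 and 2.60 to 6.72 CPM at P28 against 1.33 to 2.86 and 1.06 to 4.29 CPM at P9.

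The histone-handling genes were lower in 11 and higher in 1 of 29 tested (Nap1l1 by -1.45 ± 0.09, Mcm2 by -2.99 ± 0.20 and the H3 and H4 chaperone gene Nasp by -1.38 ± 0.15; Lsm10 by 0.33 ± 0.11), and the unclustered histone genes lower in 11 of 11 (H1f0 by -1.20 ± 0.07, H3f3a by -0.87 ± 0.06, H2afz by -0.59 ± 0.06).

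**Figure D4:**
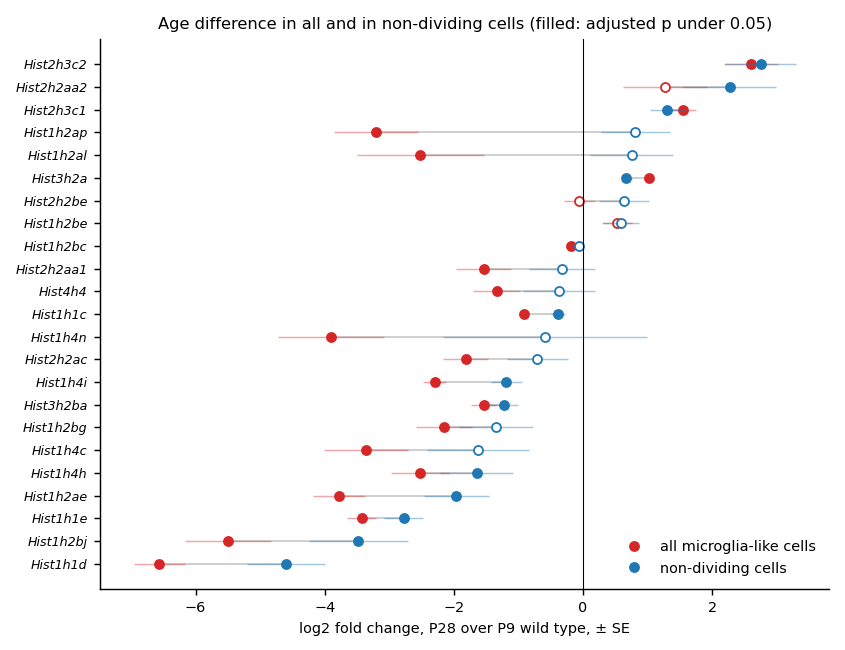
Log2 fold changes (± SE) of P28 over P9 wild-type cells for the 23 clustered histone genes that could be tested in non-dividing cells, in all microglia-like cells (red) and in non-dividing cells (blue); filled points have an adjusted p under 0.05. Hist3h2a, Hist2h3c1 and Hist2h3c2 lie above 0 in both, and Hist1h1e lies at -3.43 in all cells and -2.78 in non-dividing cells.

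The libraries labelled KO were compared with their Het littermates. No member was called of 59 tested, where 0.319% of all 11600 genes were called higher and 0.293% lower; 25 members (42.4%) and 1164 of all genes (10.0%) had an unadjusted p under 0.05, and DESeq2 called 0 members as well. Over all 68 members 64 had more UPM in KO, with 1147 together in KO and 756.2 in Het, and the median log2 fold change was 0.77 over tested members and -0.00 over all genes. The pseudogene-annotated Hist1h2al, whose levels are given below, was the largest single part of the summed UPM in each KO and Het library. The KO libraries were unlike: KO replicate 1 had 1517 UPM of members, KO replicate 2 had 814, and the Het libraries 778 and 735. Without KO replicate 2, which leaves that arm with KO replicate 1 alone, assumed to vary like the other groups, 5 members were called higher (background 1.07%). Without the filter on low counts 12 of 68 were called higher (background 1.41%). The cell names of replicate 1 of both KO and Het carry the word redo and those of replicate 2 do not, and what it stands for is not stated. With the replicate number as a block, which takes out what libraries of the same number share, 12 of 55 tested members were called higher (background 1.97%) and 0 lower. The absence of calls thus depends on the fit.

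Hist1h2al had 633 and 157 CPM in KO and 197 and 108 CPM in Het, with a log2 fold change of 1.38 ± 0.46 (adjusted p = 0.32); KO replicate 2 lay between the Het libraries. The others differed by less: Hist1h4i by 0.21 ± 0.16 (38.4 and 32.4 CPM in KO against 26.2 and 35.2 CPM in Het), Hist1h2ap by 0.23 ± 0.53 (44.2 and 28.1 CPM in KO against 22.8 and 38.7 CPM in Het), and Hist1h1c by 0.04 ± 0.07 (81.6 and 83.3 CPM in KO against 77.6 and 83.7 CPM in Het). Hist1h2bc differed by -0.06 ± 0.07, with 90.45 and 97.95 CPM in KO against 101.5 and 96.7 CPM in Het. Hist3h2a, at 57.5 and 59.5 CPM in KO and 64.2 and 67.6 CPM in Het (-0.16 ± 0.08, adjusted p = 0.53), was the gene of these 6 whose groups did not overlap. With 2 libraries a group, such a separation by itself carries little weight. With edgeR, 0 of the 29 histone-handling and 0 of the 11 unclustered histone genes tested were called, and 2 and 3 of them had an unadjusted p under 0.05. The S-phase list summed to 1187 and 1497 CPM in KO and 1106 and 1124 CPM in Het libraries. Dividing cells made up 31.2% and 26.7% of the cells thinned in KO and 23.7% and 25% in Het libraries. The part of both in the result was not tested.

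In cultures given IL-33 only 9 of 67 members passed the filter on low counts, and 0 were called, where 4.21% of all 10814 genes were called higher and 3.5% lower; 1 had an unadjusted p under 0.05, and DESeq2 also called 0. In these bulk samples, as in the sorted ones, fewer cells of a type and less RNA per cell cannot be told apart. Hist1h2bc had a lowest, median and highest level of 49.6, 64.3 and 79.1 CPM in IL33 cultures and 58.6, 64.1 and 78.0 CPM in Medium cultures (log2 fold change -0.04 ± 0.08, adjusted p = 0.85). Hist1h1c had 11.5, 15.1 and 17.3 CPM in IL33 and 13.8, 17.7 and 20.5 CPM in Medium cultures (-0.23 ± 0.11, adjusted p = 0.26). The groups overlapped in both genes.

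Hist3h2a had 24.4, 28.4 and 31.9 CPM in IL33 and 25.95, 32.5 and 34.1 CPM in Medium cultures (-0.10 ± 0.08, adjusted p = 0.57), and Hist1h4i 1.71, 2.82 and 3.79 CPM in IL33 against 2.55, 3.23 and 3.72 CPM in Medium cultures (-0.28 ± 0.19, adjusted p = 0.49). Hist1h2ap was too low to test, at up to 1.52 CPM in IL33 and 0.565 CPM in Medium cultures. Of the 29 G2/M genes 1 was lower and 0 higher. Beside these, 4 of 9 tested microglia markers were lower in IL33 cultures (summed level 7028 to 8031 CPM in IL33 and 7385 to 8368 CPM in Medium cultures), the neutrophil markers S100a9, Ngp, Ltf, Elane and Mpo were at 0 in both, and their part was not tested. Srrt rose in the histone-handling list (0.25 ± 0.07, 1 of 29 tested), and 2 of 9 unclustered histone genes were lower, H2afz (-0.20 ± 0.04) and H2afv (-0.38 ± 0.09).

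Tau-GFP plus microglia differed from Tau-GFP negative ones in 7 of the 31 members tested, all higher in plus (22.6%), which is near the background of 20.7% of all 12137 genes called higher; 16.9% of genes and 0 members were called lower. The median was 0.07 over the tested members and 0.01 over all genes. Hist1h2bq and Hist1h2br, both among the tested, had equal values in every library, so they are not separate measurements. Hist1h2ao had 132, 171.5 and 197 CPM (lowest, median, highest) in plus and 68.0, 101 and 141 CPM in negative samples (log2 fold change 0.73 ± 0.13, adjusted p = 0.00019). Its groups overlapped, and its reads could also stem from Hist1h2ap, which had at most 3.18 CPM.

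Hist1h2bc had 36.7, 44.3 and 58.3 CPM in plus and 23.1, 29.65 and 34.6 CPM in negative samples (0.61 ± 0.11, adjusted p = 0.00036), and Hist3h2ba 2.14, 2.73 and 3.86 CPM in plus and 0.671, 1.45 and 2.13 CPM in negative samples (0.97 ± 0.25, adjusted p = 0.0049). These were the 2 called members whose groups did not overlap, and the share of all tested genes without overlap was not determined. Hist2h3c2 (0.86 ± 0.24), Hist2h3b (0.74 ± 0.23) and Hist1h4i (0.52 ± 0.17, adjusted p = 0.024) completed the 6 with the smallest p; Hist1h4i had 5.16, 7.26 and 10.5 CPM in plus and 4.14, 5.37 and 7.08 CPM in negative samples, and its call was lost without the filter on low counts (adjusted p = 0.052). The 7th, Hist1h3i, was named after its values were seen. Here too, called members share at least 75 coding bases with another member: 1 of 1 H2A, 1 of 2 H2B, 3 of 3 H3 and 1 of 1 H4.

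Hist3h2a and Hist1h1c did not pass the test, with 48.05, 55.45 and 60.3 CPM in plus against 45.1, 53.45 and 56.4 CPM in negative samples for Hist3h2a (0.07 ± 0.07, adjusted p = 0.44) and a log2 fold change of 0.19 ± 0.14 (adjusted p = 0.30) for Hist1h1c. All 29 G2/M genes and 4 of the 25 S-phase genes were higher in plus, and 1 S-phase gene lower. Markers of other cells moved with these results: all 8 border macrophage markers were higher (summed level 2771 to 7670 CPM in plus and 472.5 to 735 CPM in negative samples), as were all 8 neuron markers (97.5 to 301 CPM in plus against 8.23 to 28.96 CPM in negative samples), all 6 tested mural and 6 of 7 astrocyte markers and 5 of 8 endothelial markers, and all 10 microglia markers were lower (27600 to 43420 CPM in plus against 55640 to 67580 CPM in negative samples). The neutrophil markers Elane and Mpo were at 0. The part of these cells in the result was not tested. Of 10 unclustered histone genes tested 7 were higher, among them H2afy2 (3.16 ± 0.28), Cenpa (1.02 ± 0.11) and H2afz (0.58 ± 0.08), and of the histone-handling list 3 were higher (Asf1b by 0.47 ± 0.10, Nasp by 0.51 ± 0.11, Lsm10 by 0.27 ± 0.10) and 2 lower (Cpsf3 by -0.28 ± 0.06, Cabin1 by -0.23 ± 0.06) of 29.

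TMRM high microglia had higher levels of 22 of the 64 members tested (34.4%) and a lower level of 1 than TMRM low microglia, where 20.4% of all 10714 genes tested were called higher and 9.84% lower (limma on log2(FPKM + 1), a scale that understates the change of low genes). The 22 comprised 12 of 17 H2A genes, 6 of 18 H2B genes, 2 of 12 H3 genes, 2 of 13 H4 genes and 0 of 4 H1 genes. Of the 12 H2A genes 11 share at least 75 coding bases with another member. So do 6 of the 6 H2B, 2 of the 2 H3 and 1 of the 2 H4 genes. These calls are therefore not independent measurements. The median log2 difference was 0.27 over the tested members and 0.06 over all genes. FPKM were not rescaled between libraries. Their totals ran from 436809 to 541234 in high and from 388966 to 498471 in low samples, and the part of this in the result was not tested.

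Hist1h2aa, first among the H2A genes, had a lowest, median and highest level of 7.50, 9.15 and 11.05 FPKM in TMRM high and 2.90, 3.84 and 5.77 FPKM in TMRM low samples (1.03 ± 0.11, adjusted p = 3.7e-07). Hist1h2ah had 87.3, 120 and 146 FPKM in high against 51.6, 61.4 and 84.1 FPKM in low samples (0.83 ± 0.11, adjusted p = 1.2e-05). Neither overlapped between the groups, and the share of all tested genes without overlap was not determined. Hist1h2ab, Hist1h2ad, Hist1h2ag and Hist1h2an differed by 0.82, 0.80, 0.78 and 0.78, each ± 0.11, with adjusted p of 2.2e-05 or less, and of these 4 Hist1h2an alone overlapped. Hist1h2ao, the highest per length, differed by 0.78 ± 0.12, with overlap, and averaged 464 FPKM in high and 273 FPKM in low samples. The other bulk libraries, those of the cultures and Tau-GFP sorts, held almost none of some of these genes. There Hist1h2aa was at 0 CPM throughout, Hist1h2ah reached at most 0.958 CPM and Hist1h2ad at most 1.06 CPM. Which copies gave the FPKM of these genes is thus uncertain and was not tested.

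Hist1h2bc had 44.8, 56.7 and 69.0 FPKM in high and 29.8, 42.65 and 55.4 FPKM in low samples (0.44 ± 0.13, adjusted p = 0.012), with overlap. Hist3h2a was the member that was lower, with 18.2, 19.6 and 23.7 FPKM in high and 20.8, 26.1 and 38.4 FPKM in low samples (-0.38 ± 0.09, adjusted p = 0.0044). Its groups overlap between 20.8 and 23.7 FPKM. Hist1h1c (0.49 ± 0.26, adjusted p = 0.17) and Hist1h4i (0.15 ± 0.14, adjusted p = 0.45) did not pass, with 5.33, 13.9 and 22.5 FPKM in high against 4.45, 8.08 and 17.7 FPKM in low samples for Hist1h1c. Hist1h2ap was not tested, being listed near 0 FPKM in all but 1 library, a TMRM low one at 7.05.

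All 29 G2/M genes and 15 of 25 S-phase genes were higher in TMRM high samples, and 0 of either lower. So were 7 of 10 unclustered histone genes (H2afz by 0.88 ± 0.07, Cenpa by 1.04 ± 0.09, H2afv by 0.57 ± 0.08). The histone-handling list had 4 higher (Asf1b by 0.96 ± 0.14, Chaf1b by 0.48 ± 0.12, Lsm10 by 0.30 ± 0.08) and 1 lower (the coilin gene Coil, by -0.49 ± 0.13) of 29. Beside these, 6 of 8 neutrophil markers were lower in high samples (summed level 0.431 to 782 FPKM in high and 643 to 2308 FPKM in low samples), 5 of 8 border macrophage markers higher (124 to 216 FPKM in high against 51.6 to 136 FPKM in low samples), 6 of 10 microglia markers lower, and the choroid plexus markers ranged from 30.8 to 118 FPKM in high and 116 to 34360 FPKM in low samples. Their part in the result was not tested.

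**Figure D5:**
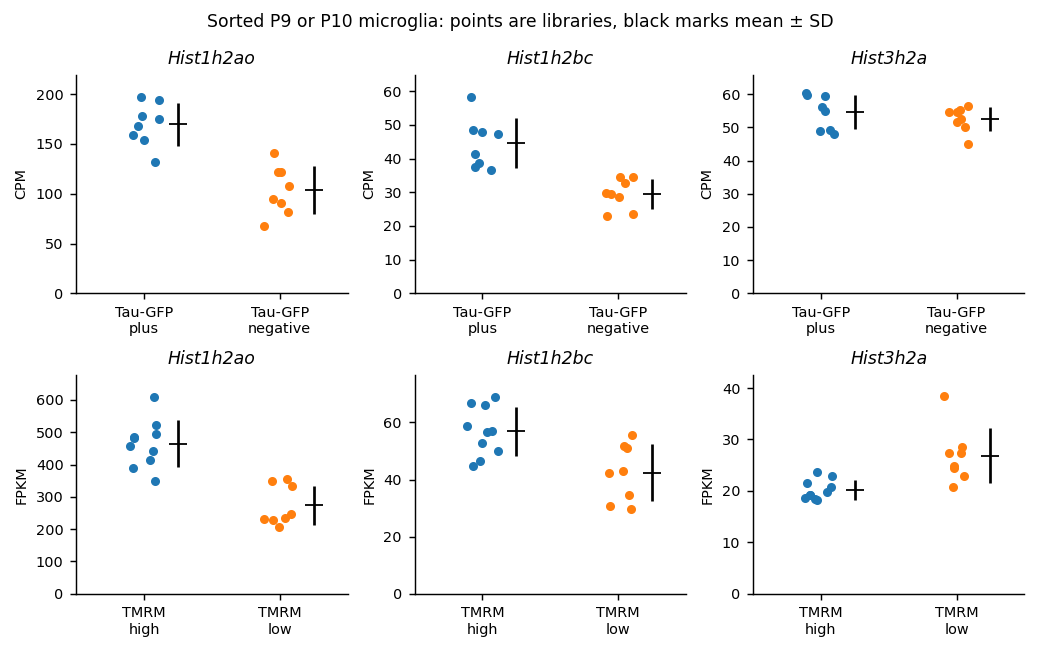
Levels of Hist1h2ao, Hist1h2bc and Hist3h2a in the sorted samples, Tau-GFP plus and negative in CPM (top) and TMRM high and low in FPKM (bottom); points are libraries and black marks the mean ± SD. Hist1h2bc separates the Tau-GFP groups at 36.7 against 34.6 CPM, and Hist3h2a is lower in TMRM high samples, with 1 TMRM low library at 38.4 FPKM.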

How the data were processed

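The UMI counts of the single-cell matrix were made by the authors with Cell Ranger, per the submitters' processing notes, and are used as deposited. The bulk culture and Tau-GFP values are expected counts deposited by the authors, made with Bowtie2 and RSEM per the submitters' processing notes; 25.3% of them were not whole, and they were rounded. The TMRM values are FPKM deposited by the authors, from TopHat2 2.0.10 and Cufflinks 2.0.2 per the submitters' processing notes, with mm10 as the build; for Cell Ranger, Bowtie2 and RSEM the version is not given in the sources used here. FPKM give no counts, so their depth is unknown. Of the 35 columns of counts, 5 matched no sample and were not used, and 1 TMRM high file is cut short by 500 symbols, none of them a member.

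Cells with at least 500 genes and at most 10% mitochondrial UMIs were clustered with scanpy 1.11.5 and leidenalg 0.10.2, without histone, histone-handling or cell cycle genes, and UMIs were summed per library; no doublet caller was run. Counts were tested with edgeR 4.0.16 (quasi-likelihood, TMM, low counts filtered) and FPKM with limma 3.58.1 on log2(FPKM + 1) at a mean of at least 1 FPKM, in R 4.3.3, with p-values adjusted over all genes tested; DESeq2 1.42.0 was an alternative. The fits were tested on simulated data. Cell class comparisons had the library as a block. The other fits had no block: no label ties a replicate number to a shared animal or batch, and correlations of same-numbered deviations ran from -0.161 to 0.279. In the Tau-GFP sorts, the same-numbered negative library was the closest match of plus replicates 1, 5, 6 and 8, but not of 2, 3, 4 and 7. A pairing in that set is thus not excluded, and its count with a replicate block is given in the last section. In the single-cell KO and Het libraries, a set of 2 pairs with a correlation of 0.0901, cell names mark replicate 1 of both as redo, so the blocked count is given beside that result.

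The members and lists were chosen with earlier results of these data known. Genes named are the 6 members with the most UMIs, up to 6 called members with the smallest p in each direction, up to 3 called genes a direction of each other list, and the 3 highest per length of each class. Counting intervals cover counting error only.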

Additional observations from a re-analysis of the deposited data

Results flagged for a closer look

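Hist3h2a stood apart in 1 library of the TMRM low group: replicate 3 had 38.41 FPKM, and the next highest of the 8 low samples had 28.52 FPKM, a gap of 0.563 of the group's range. Of 44 groups examined this was the only one with such a gap, and chance alone gives about 1 in 20 groups. The library belongs to the group in which Hist3h2a was higher than in TMRM high samples.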

How the results depend on the processing

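Without the filter on low counts, members called higher numbered 5 for P28 against P9 and 12 for KO against Het, and those lower in non-dividing cells at P28 numbered 14; with non-dividing taken as fewer than 3 cell cycle UMIs that last count was 16 of 33 tested. Members lower in dividing cells numbered 1 with DESeq2, with dividing taken from 5 UMIs, in the 2 wild-type P9 libraries alone and with no replicate block. With no replicate block 35 of 36 tested were higher in dividing cells and 26 of 43 lower in S-leaning cells, and Hist1h2al lost its call there (adjusted p = 0.14). With a replicate block, although no label says that the numbers pair samples, 12 members were called higher in KO, 0 in IL33 cultures, 5 in Tau-GFP plus and 15 in TMRM high samples, where 1 was lower. Leaving out 1 library at a time gave 38 to 49 members lower and 3 to 3 higher at P28, 6 to 10 lower and 3 to 4 higher in non-dividing cells at P28, 0 to 5 higher and 0 to 0 lower in KO, 49 to 55 higher and 2 to 2 lower in dividing cells, and 39 to 44 lower and 0 to 0 higher in S-leaning cells. Values that had no call changed sign 6 times: KO against Het for Hist1h1c (-0.01) and Hist1h2ap (-0.10) without Het replicate 1, for Hist1h2ap (-0.13) without KO replicate 1 and for Hist1h2bc (0.12) in non-dividing cells alone, and P28 against P9 in non-dividing cells for Hist1h2ap (-0.01) without P28 replicate 1 and Hist1h2bc (0.00) without P9 replicate 2. Over all single-library omissions these 4 genes and comparisons ranged from -0.01 to 0.10 (Hist1h1c) and from -0.13 to 0.66 (Hist1h2ap) in KO against Het, and from -0.12 to 0.00 (Hist1h2bc) and from -0.01 to 2.09 (Hist1h2ap) in non-dividing cells at P28. Of 621 single-gene values under alternatives, 591 kept direction and side of the threshold. The causes were not tested. Shares over all genes under such alternatives are given above for KO against Het alone. The other counts in this section therefore have no background beside them. Hist2h3c1 in dividing cells had an adjusted p of 0.30 in the wild-type libraries alone. Low UMI counts limit H3 and most members at P28, and near-identical copies limit the H2A genes and most other called members in bulk.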
